A study of Mus musculus with 9 samples.

Results

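The DnaJ and heat shock chaperones are genes named for the J domain proteins of classes A, B and C (Dnaja, Dnajb, Dnajc) or for heat shock proteins (Hsp). They were chosen by symbol: every array row annotated with exactly 1 gene symbol beginning with one of these stems and a following number or letter was kept, and rows of a gene were averaged. This gave 73 genes, 45 of them Dnaj and 28 Hsp, from 96 rows, of 19935 genes in all. Whole testis of Swiss albino mice was taken at 8, 16 and 24 days of age, with 3 arrays per age and no treatment or genetic change. The design text calls the arrays of an age biological replicates. Replicates 1 and 2 carry those numbers in their titles, and replicate 3 is the array whose title has none. The deposited log2 values are centred on the median of each row across the 9 arrays, so that 0 is the gene's own middle array. They show change with age and give no level that could be compared between genes. Hspa1b and Hsp90ab1 had no row of their own and were not analysed here.

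HSP70 proteins bind unfolded stretches of other proteins and release them in a cycle driven by ATP. J domain proteins bring clients to HSP70 and start ATP hydrolysis, and HSP90, the chaperonins, HSP110 and the small heat shock proteins act before, after or beside that step. Male germ cells carry their own versions of several of these proteins: some appear in spermatocytes, the cells in meiosis, and some in spermatids, the haploid cells that become sperm.

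Each of the 73 genes was tested with limma over all 19935 genes, and "rose" or "fell" is used where the Benjamini-Hochberg adjusted p was below 0.05. Changes are differences of log2 values with limma's standard error (SE), from 3 arrays per age. In whole testis, more cells of a type and more RNA per cell cannot be told apart. The mean of 5 spermatocyte markers lay between -3.12 and -2.79 on the arrays of 8 days, between -0.04 and 0.22 at 16 days and between 0.28 and 0.54 at 24 days. For 5 spermatid markers the ranges were -0.25 to -0.01, -0.26 to -0.01 and 3.74 to 4.90, and for 4 Sertoli cell markers 0.73 to 1.06, -0.35 to 0.08 and -0.87 to -0.64. The median of 1027 olfactory receptor genes was 0.17 on replicate 1 of 8 days and on replicate 2 of 16 days, against -0.05 to 0.03 on the other arrays. These 2 arrays are called the arrays that stand apart below.

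More of the chaperones rose than fell in each comparison. From 8 to 16 days 19 of 73 rose and 5 fell, that is 26.0% and 6.85%, where 10.4% of all genes rose and 14.3% fell. From 16 to 24 days 25 rose and 5 fell, 34.2% and 6.85%, against 13.2% and 20.1% of all genes. Over the whole span 35 rose and 17 fell, 47.9% and 23.3%, against 19.2% and 35.2%. The median change of the 73 genes was 0.04, 0.03 and 0.28 in the 3 comparisons, and that of all genes was -0.02, -0.16 and -0.18. Scaling each array to its own median moved these comparisons up by 0.03, 0.09 and 0.12. With that scaling 36 chaperones rose and 11 fell over the whole span. With a minimum of 2-fold added to the test, 7, 9 and 18 chaperones rose, against 3.82%, 5.38% and 9.72% of all genes, and 0, 0 and 4 fell, against 0.968%, 0.145% and 7.16%. In limma's test 10, 8 and 19 chaperones fell at an unadjusted p under 0.05 with no such minimum. The share of all genes was not counted at that threshold. For 35, 41 and 55 of the 73 no array of one age lay within the range of the other, against 36.2%, 55.6% and 65.5% of all genes.

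Most rises were kept when arrays were left out. Of the 19, 25 and 35 rises, 14, 19 and 32 held without any 1 of the 9 arrays, and of the 5, 5 and 17 falls 4, 2 and 13 held. The 5 falls from 8 to 16 days became 8 without replicate 1 of 8 days. From 16 to 24 days there were 5 falls, and 8 without replicate 1 of 8 days, 2 without replicate 1 of 16 days, 9 without replicate 2 of 16 days, 3 without replicate 3 of 16 days and 2 without replicate 1 of 24 days. Without the 2 arrays that stand apart the rises numbered 17, 26 and 33 and the falls 8, 13 and 21.

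**Figure D1:**
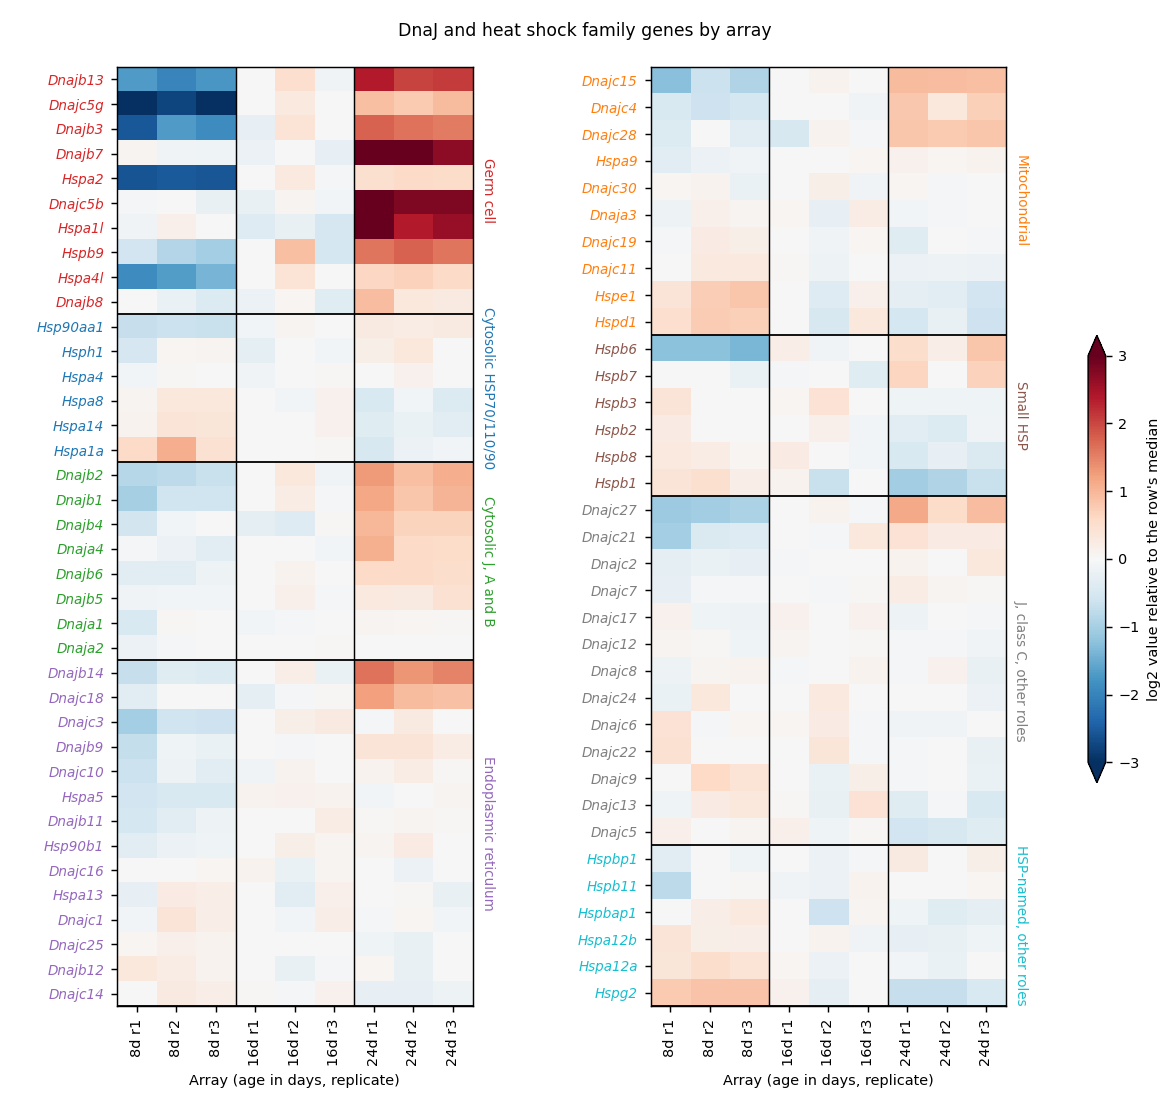
Log2 value of each of the 73 chaperone genes (rows, grouped by role) on each of the 9 arrays (columns, grouped by age in days), relative to the gene's median over the arrays. The germ cell genes run from the lowest to the highest values of the plot, while most genes of the other groups stay near 0.

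By the order of their calls, 15 genes rose in both intervals, 10 were not called from 8 to 16 days and rose from 16 to 24 days, and 4 rose first and were not called afterwards. Hspg2 fell in both intervals, 4 genes fell first and were not called afterwards, and 4 were not called first and fell afterwards. The other 35 were called in neither interval. The counts given for groups over the span are to be read against the 19.2% of all genes that rose and the 35.2% that fell. The highest mean was at 24 days for 37 genes, at 8 days for 26 and at 16 days for 10. Orders of calls and ages of highest mean were not counted over all genes, so these counts only describe the family.

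The germ cell chaperones are a list of 10 genes: the HSP70 genes Hspa2 and Hspa1l, the HSP110 relative Hspa4l, the small heat shock protein gene Hspb9, and the J protein genes Dnajb3, Dnajb7, Dnajb8, Dnajb13, Dnajc5b and Dnajc5g. From 8 to 16 days 6 of the 10 rose and none fell, and from 16 to 24 days and over the whole span all 10 rose. In limma's test 0 of them fell in the 3 comparisons at an unadjusted p under 0.05 either. Their median changes were 1.37, 1.57 and 3.09. The list was drawn up with results of these data known, so its direction is not independent evidence. Among the 63 other chaperones 13 rose and 5 fell from 8 to 16 days, 15 and 5 from 16 to 24 days, and 25 and 17 over the whole span. The shares that rose there were 20.6%, 23.8% and 39.7%, which is above the 10.4%, 13.2% and 19.2% of all genes.

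For 3 of the 10 genes the rise by 16 days was called larger than the rise that followed. Hspa2, the HSP70 of spermatocytes that is needed to complete meiosis in males, stood at -2.59, -2.51 and -2.58 at 8 days, at 0.00, 0.30 and -0.02 at 16 days, and at 0.48, 0.58 and 0.55 at 24 days. The 3 ages did not overlap, and the step between the first pair of ages was by far the longer. Hspa2 rose by 2.65 ± 0.10 (SE), or 6.28-fold, from 8 to 16 days (adjusted p = 1.36e-07) and by 0.45 ± 0.10 from 16 to 24 days (adjusted p = 0.00849). The second change minus the first was -2.20 ± 0.17 (adjusted p = 8.1e-05).

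Dnajc5g, a testis relative of the cysteine string protein of secretory vesicles, had values of -3.22, -2.75 and -3.11 at 8 days, 0.00, 0.30 and -0.02 at 16 days, and 0.90, 0.79 and 0.95 at 24 days. It rose by 3.12 ± 0.13, or 8.69-fold, and then by 0.79 ± 0.13, or 1.73-fold. The lowest values of the whole family were those of Dnajc5g at 8 days, and its ages did not overlap. Hspa4l, an HSP110 protein of the testis, gave -1.88, -1.67 and -1.40 at 8 days, -0.01, 0.42 and 0.00 at 16 days, and 0.62, 0.69 and 0.57 at 24 days. It rose by 1.78 ± 0.15, or 3.45-fold, and then by 0.49 ± 0.15 (adjusted p = 0.0282). That second call was lost without replicate 1 or 3 of 16 days or any array of 24 days, where the adjusted p was 0.0566 to 0.109. The second change of Hspa4l was smaller than the first by 1.29 ± 0.25 (adjusted p = 0.0151), and for Dnajc5g this difference was -2.33 ± 0.23 (adjusted p = 0.000291).

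A second set of 3 rose in both intervals, with no called difference between them. Dnajb13, a J protein of the radial spokes of the sperm tail, had values of -1.71, -1.99 and -1.74 at 8 days, 0.00, 0.51 and -0.11 at 16 days, and 2.39, 2.03 and 2.10 at 24 days. It rose by 1.95 ± 0.17 and by 2.04 ± 0.17, which makes 15.9-fold over the span, the largest rise of the family. Dnajb3, a J protein of spermatids, went from -2.54, -1.70 and -1.90 through -0.24, 0.40 and 0.00 to 1.78, 1.63 and 1.55. It rose by 2.10 ± 0.22 and by 1.60 ± 0.22, 13-fold in all. Neither gene had overlapping ages. Hspb9, a small heat shock protein of the testis, was at -0.58, -0.87 and -1.03, then at 0.00, 0.90 and -0.54, then at 1.60, 1.78 and 1.61. Its arrays of 16 days were spread widely, and the lowest lay next to the highest array of 8 days. Hspb9 rose by 0.95 ± 0.29 (adjusted p = 0.0385) and by 1.54 ± 0.29 (adjusted p = 0.00379). The first of these calls held without replicate 1 of 8 days or replicate 3 of 16 days and was lost without any other array (adjusted p 0.0539 to 0.125), and the change was 0.56 without replicate 2 of 16 days. The tests of the 2 intervals against each other gave adjusted p = 0.892 for Dnajb13, 0.573 for Dnajb3 and 0.616 for Hspb9, and the last was 0.0399 without replicate 2 of 16 days.

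The remaining 4 genes of the list rose from 16 to 24 days and were not called before. Dnajb7, a J protein of the testis, had values of 0.08, -0.11 and -0.14 at 8 days, -0.19, 0.00 and -0.24 at 16 days, and 3.94, 3.08 and 2.67 at 24 days. Ages 8 and 16 days overlapped, and the 3 arrays of 24 days stood far above both. Dnajb7 changed by -0.08 ± 0.26 (adjusted p = 0.933) and then rose by 3.37 ± 0.26, or 10.4-fold (adjusted p = 1.56e-05). Hspa1l, the HSP70 of spermatids, was at -0.10, 0.15 and 0.00, then at -0.40, -0.23 and -0.51, then at 3.63, 2.37 and 2.62. All arrays of 16 days lay below those of 8 days, with a change of -0.40 ± 0.27 (adjusted p = 0.37). This became a called fall without replicate 1 of 24 days (adjusted p = 0.0369) and with only the arrays of both ages (adjusted p = 0.0446). Hspa1l then rose by 3.25 ± 0.27, or 9.54-fold.

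Dnajc5b, another cysteine string protein of the testis, gave -0.03, 0.00 and -0.23, then -0.21, 0.09 and -0.09, then 3.41, 2.80 and 2.81. It changed by 0.01 ± 0.16 and then rose by 3.08 ± 0.16, or 8.45-fold (adjusted p = 1.5e-06). For Dnajb7, Hspa1l and Dnajc5b the second change was larger than the first by 3.46 ± 0.45, 3.65 ± 0.46 and 3.07 ± 0.28 (adjusted p = 0.00131, 0.00113 and 0.000185). Dnajb8, a J protein known for keeping aggregation-prone proteins soluble, gave 0.00, -0.20 and -0.42, then -0.18, 0.05 and -0.36, then 0.94, 0.31 and 0.28. Its arrays of 24 days were above all others by a small margin. Dnajb8 rose by 0.67 ± 0.19 from 16 to 24 days (adjusted p = 0.022), and this call was lost without replicate 1 or 3 of 16 days or replicate 1 of 24 days (adjusted p 0.0677 to 0.0706). The change was 0.46 without replicate 1 of 24 days.

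**Figure D2:**
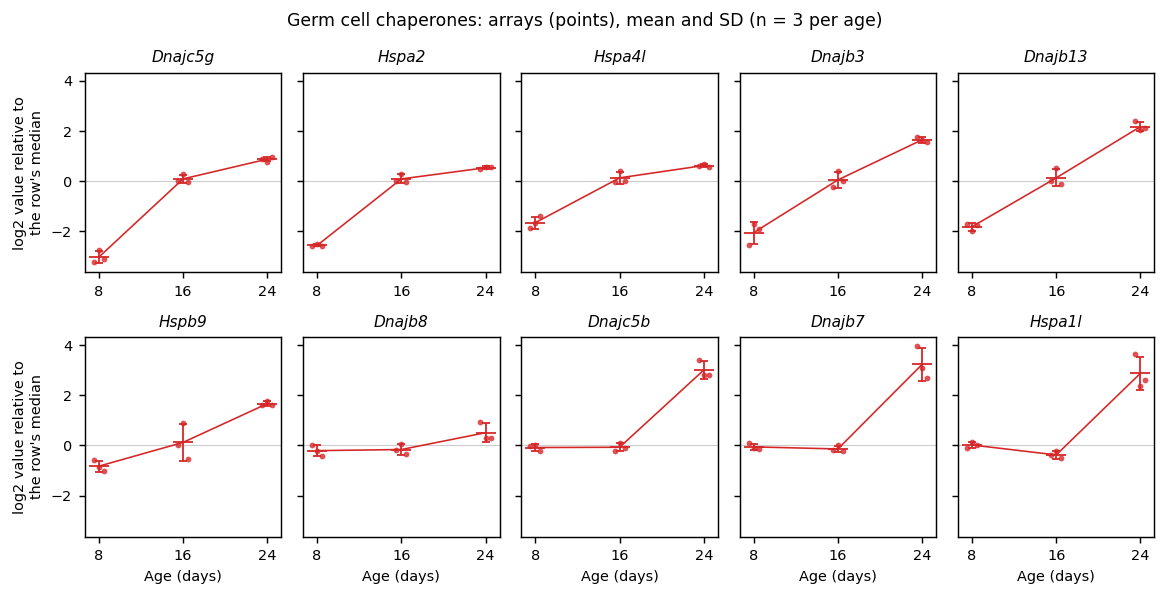
Log2 values of the 10 germ cell chaperones by age in days, relative to each gene's median. Points are single arrays and lines join the means of 3 arrays. Hspa2, Dnajc5g and Hspa4l climb mainly by 16 days, and Dnajb7, Hspa1l and Dnajc5b stay near 0 until 16 days and climb by 24 days.

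Spermatocyte markers stood high from 16 days on, like Hspa2, Dnajc5g and Hspa4l, and spermatid markers only at 24 days, like Dnajb7, Hspa1l and Dnajc5b. The part of these cell types in the changes was not tested. Without the 2 arrays that stand apart, 6, 10 and 10 of the list rose in the 3 comparisons. Over the family 10 genes changed differently in the 2 intervals, 5 with the larger value in the second and 5 in the first, where the shares over all genes were 3.06% and 2.31%. Without replicate 1 of 16 days there were 6 such genes. Beside the 6 germ cell genes above they were Dnajb14, Dnajc18, Dnajc3 and Hspa5, which are described with their groups.

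**Figure D3:**
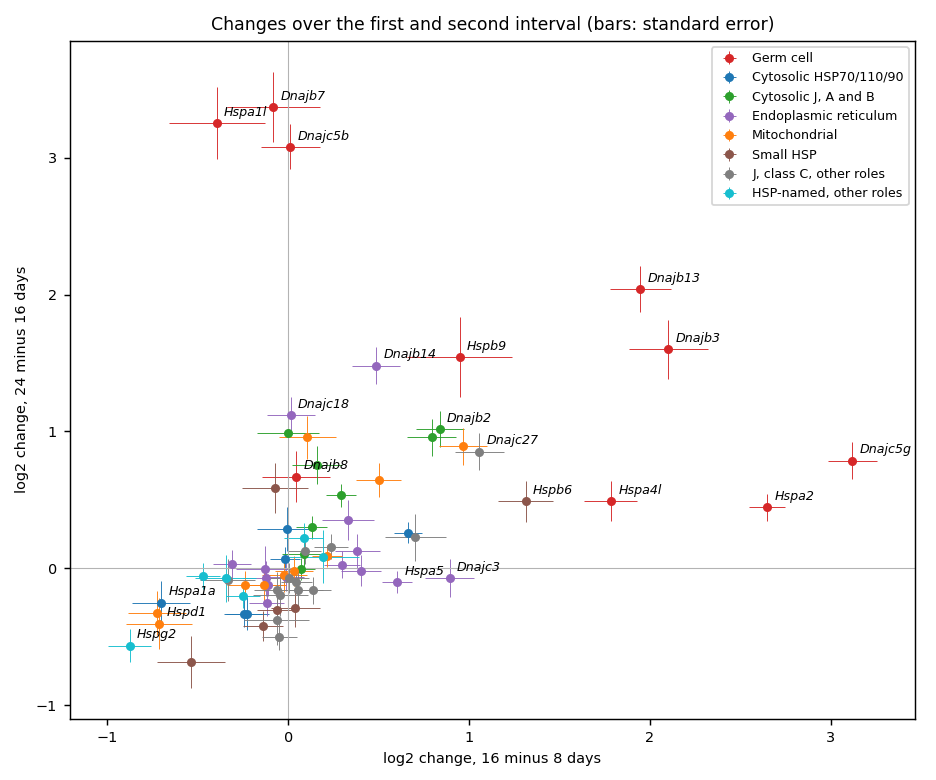
Change from 8 to 16 days (horizontal) against change from 16 to 24 days (vertical) for the 73 chaperones, both as differences of log2 means of 3 arrays. The points farthest to the right (Dnajc5g at 3.12, Hspa2 at 2.65) and farthest up (Dnajb7 at 3.37, Hspa1l at 3.25) are germ cell genes. Dnajb8 of that list lies among the other genes, of which Dnajb14 and Hspb6 lie farther out. The 2 axes share the arrays of 16 days.

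Some germ cell genes were set against a ubiquitous relative by taking the difference of the 2 genes on every array. There were 5 such pairs and 15 tests, with pairs chosen after values were seen. Hspb9, Dnajb3, Dnajb7, Dnajb8 and Dnajb13 were not paired with any relative. Exact 2-sided permutation tests with 3 against 3 arrays cannot go below p = 0.1, which no adjusted value can pass (0.115 for every comparison at that floor). Hspa2 minus Hspa8, the constitutive HSP70, went from -2.80 ± 0.11 (SD, n = 3) at 8 days through 0.08 ± 0.28 to 0.86 ± 0.17, and its ages did not overlap (exact permutation p = 0.1 each). Hspa4l minus Hspa4, the ubiquitous HSP110 relative, went from -1.64 ± 0.20 through 0.16 ± 0.23 to 0.58 ± 0.03. In both pairs the ratio moved most by 16 days.

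Hspa1l minus Hspa1a, the stress-inducible HSP70, went from -0.69 ± 0.24 through -0.38 ± 0.16 to 3.12 ± 0.86. The first step had an exact permutation p of 0.2 and the others 0.1. Dnajc5b minus Dnajc5 went from -0.16 ± 0.15 through -0.10 ± 0.29 to 3.48 ± 0.44, with an exact permutation p of 0.8 for the first step. Dnajc5g minus Dnajc5 went from -3.10 ± 0.31 through 0.07 ± 0.30 to 1.36 ± 0.11. Dnajc5g moved away from Dnajc5 by 3.17 in the first interval and by 1.29 in the second, and Dnajc5b by 0.06 and 3.58.

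**Figure D4:**
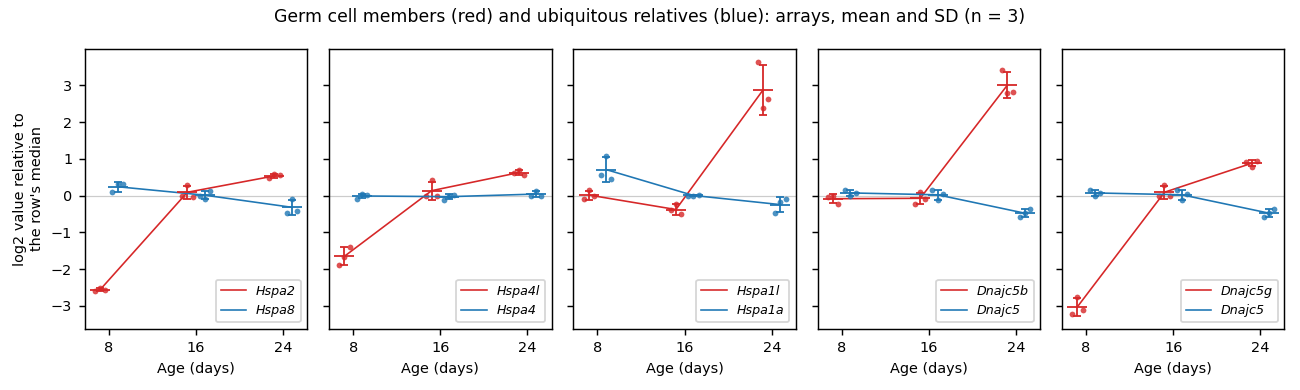
Log2 values by age in days of the paired germ cell chaperones and ubiquitous relatives, each relative to its own gene's median, with points for single arrays and lines through the means. The germ cell genes span 2 to 4 units while the means of the relatives move by less than 1 unit. Hspa8, Hspa1a and Dnajc5 slope downwards.

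Among the ubiquitous cytosolic HSP70, HSP110 and HSP90 genes, 1 of 6 rose and 3 fell over the span, 16.7% and 50%, against 19.2% and 35.2% of all genes. Hsp90aa1, the stress-responsive HSP90 that is abundant in germ cells, had values of -0.68, -0.64 and -0.67 at 8 days, -0.09, 0.07 and 0.00 at 16 days, and 0.26, 0.23 and 0.28 at 24 days. Its replicates lay close together and its ages did not overlap. It rose by 0.66 ± 0.08 and then by 0.26 ± 0.08 (adjusted p = 0.028), and the second call was lost without replicate 1 or 3 of 16 days or any array of 24 days (adjusted p 0.0531 to 0.128). Over the span the rise was 0.92 ± 0.08, or 1.89-fold.

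Hspa1a ran the other way, with 0.58, 1.09 and 0.47 at 8 days, -0.01, 0.00 and 0.03 at 16 days, and -0.48, -0.17 and -0.09 at 24 days. It fell by 0.70 on the log2 scale from 8 to 16 days (SE 0.16, adjusted p = 0.00973) and was not called afterwards (-0.25 ± 0.16). Hspa8 had values of 0.09, 0.33 and 0.32, then -0.01, -0.09 and 0.14, then -0.46, -0.08 and -0.41. Its ages overlapped between 8 and 16 days and between 16 and 24 days, and it fell over the span, with a change of -0.56 ± 0.12 (adjusted p = 0.00307). From 16 to 24 days it changed by -0.33 ± 0.12 (adjusted p = 0.0636), which was a called fall without replicate 1 of 8 days or replicate 2 of 24 days.

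Hspa14, which pairs with the J protein Dnajc2 at the ribosome, fell over the span with a change of -0.58 ± 0.10 (adjusted p = 0.000655). Its fall from 16 to 24 days (-0.33 ± 0.10, adjusted p = 0.0282) was lost without replicate 1 or 3 of 16 days or of 24 days (adjusted p 0.0724 to 0.103). Dnajc2 rose over the span by 0.39 ± 0.09. Hspa4 and Hsph1, the HSP110 proteins that exchange nucleotide on HSP70, were not called, with span changes of 0.05 ± 0.08 and 0.28 ± 0.16.

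The cytosolic J proteins of classes A and B, the main partners of these HSP70s, moved upwards: 6 of 8 rose over the span and none fell (limma, 0 at an unadjusted p under 0.05). Dnajb1, the heat-inducible partner of HSP70, was at -0.997, -0.61 and -0.61, then at 0.00, 0.21 and -0.05, then at 1.17, 0.84 and 1.03. It rose by 0.79 ± 0.13 and by 0.96 ± 0.13, or 3.36-fold in all, with no overlap of ages. Dnajb2, a J protein with ubiquitin-binding motifs, rose by 0.84 ± 0.13 and 1.02 ± 0.13, or 3.62-fold in all. Its 3 arrays of 24 days were at 1.28, 0.90 and 1.08 and those of 8 days at -0.86, -0.79 and -0.67. These are larger changes than those of any HSP70, HSP110 or HSP90 gene of the ubiquitous cytosolic list, whose span changes ran from -0.95 to 0.92.

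Dnajb6, which holds back protein aggregation, rose by 0.29 ± 0.08 (adjusted p = 0.0264) and by 0.53 ± 0.08. The first call was lost without replicate 1 or 2 of 8 days or replicate 1 or 2 of 16 days (adjusted p 0.0518 to 0.0844). Dnajb4 rose in the second interval by 0.99 ± 0.17, after a change of -0.00 ± 0.17. The difference between its intervals had adjusted p = 0.0981 and passed without replicate 1 of 8 days (0.0276). Dnaja4 rose by 0.76 ± 0.14 from 16 to 24 days and was not called before (0.16 ± 0.14). Dnajb5 rose by 0.43 ± 0.09 over the span. Its call from 16 to 24 days (0.30 ± 0.09, adjusted p = 0.0246) was lost without replicate 1 or 3 of 16 days or of 24 days (adjusted p 0.0594 to 0.0964). Dnaja1 and Dnaja2, the abundant class A partners, were not called in any comparison, with span changes of 0.20 ± 0.12 and 0.06 ± 0.08.

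Of the 14 chaperones of the endoplasmic reticulum, where secreted and membrane proteins fold, 4 rose and none fell from 8 to 16 days (limma, 1 at an unadjusted p under 0.05), 2 rose from 16 to 24 days, and 8 rose and 3 fell over the span. Over the span this is 57.1% and 21.4% of the list, against 19.2% and 35.2% of all genes. From 8 to 16 days 28.6% of the list rose, where 10.4% of all genes rose and 14.3% fell. From 16 to 24 days 14.3% of the list rose, close to the 13.2% of all genes. In that interval 0 fell (limma, 1 at an unadjusted p under 0.05), against 20.1% of all genes. Hspa5 and 2 of its J protein partners, Dnajc3 and Dnajb11, rose by 16 days and were not called afterwards. Hspa5 (BiP), the HSP70 of this compartment, had values of -0.58, -0.45 and -0.45 at 8 days, 0.10, 0.12 and 0.10 at 16 days, and -0.08, 0.00 and 0.09 at 24 days. All arrays of 8 days were lowest, and those of 24 days lay just below those of 16 days. Hspa5 rose by 0.60 ± 0.08, or 1.52-fold (adjusted p = 0.000575), and then changed by -0.10 ± 0.08 (adjusted p = 0.327). Dnajc3, a J protein partner of BiP in the lumen, was at -1.02, -0.59 and -0.63, then at 0.02, 0.16 and 0.26, then at -0.04, 0.27 and 0.00. It rose by 0.89 ± 0.14, or 1.86-fold, and then changed by -0.07 ± 0.14.

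The second change was smaller than the first by 0.70 ± 0.14 for Hspa5 (adjusted p = 0.0164) and by 0.96 ± 0.24 for Dnajc3 (adjusted p = 0.0443). The first of these calls was lost without replicate 1 or 3 of 16 days (adjusted p 0.0679 to 0.0867). That of Dnajc3 was lost without replicate 3 of 8 days, any array of 16 days, or replicate 1 or 3 of 24 days (adjusted p 0.0645 to 0.173). Dnajb11, another lumenal partner of BiP, rose by 0.40 ± 0.11 (adjusted p = 0.0238) and then changed by -0.02 ± 0.11, and its rise was lost without replicate 1 or 2 of 8 days or replicate 3 of 16 days (adjusted p 0.0544 to 0.0817). Hsp90b1 (GRP94), the HSP90 of this compartment, changed by 0.30 ± 0.10 (adjusted p = 0.054) and was called over the span only, where it rose by 0.32 ± 0.10 (adjusted p = 0.0189). The first value was a called rise without replicate 2 of 24 days (adjusted p = 0.0477), and the span call was lost without replicate 1 of 8 days or replicate 2 of 24 days (0.0535 and 0.0748).

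The promoters of 3 of these genes hold the endoplasmic reticulum stress element, the sequence through which ATF6 raises chaperone genes when unfolded protein collects. The element was searched as CCAAT, any 9 bases and CCACG, on both strands, from 250 bases before to 50 bases after each annotated start (RefSeq, GRCm38.p6). The table had such windows for 60 of the 73 genes, and 3 of 60 (5%) held it, against 37 of 27025 genes (0.137%). Hspa5, Dnajc3 and Hsp90b1 are shown because they are the 3 with a match and because they are partners in 1 compartment. Capitals mark the element, in either orientation.
Hspa5, chr2:34772000-34772069, plus strand: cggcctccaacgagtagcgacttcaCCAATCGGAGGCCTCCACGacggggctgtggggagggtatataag
Dnajc3, chr14:118937802-118937871, plus strand: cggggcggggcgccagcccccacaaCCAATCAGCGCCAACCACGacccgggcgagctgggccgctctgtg
Hsp90b1, chr10:86705525-86705664, minus strand: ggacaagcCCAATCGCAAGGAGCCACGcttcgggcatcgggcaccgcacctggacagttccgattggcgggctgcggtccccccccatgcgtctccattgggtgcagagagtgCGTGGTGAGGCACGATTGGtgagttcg
The stretches lie upstream of the annotated starts. Hsp90b1 has 2 matches, one in each orientation. A match is a description of letters, not a binding site measured here. The 9 germ cell chaperones with a window held none of the 3 motifs searched. Each motif was found for at most 2.03% of all genes, so none among 9 genes sets them apart from no other genes.

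The 2 genes of the list that rose from 16 to 24 days were relatives of Dnajb12, J proteins anchored in the membrane of the endoplasmic reticulum. Dnajb14 was at -0.69, -0.36 and -0.40, then at 0.00, 0.20 and -0.20, then at 1.63, 1.33 and 1.497. It rose by 0.48 ± 0.13 (adjusted p = 0.0237) and by 1.48 ± 0.13, or 3.91-fold over the span, with no overlap of ages. The first call was lost without replicate 1 of 8 days or replicate 1 or 2 of 16 days (adjusted p 0.065 to 0.0812), and the change was 0.28 without the 2 arrays that stand apart. Dnajc18 was at -0.32, 0.00 and -0.02, then at -0.28, -0.04 and 0.03, then at 1.23, 0.95 and 0.88. It changed by 0.01 ± 0.13 and then rose by 1.12 ± 0.13, or 2.18-fold, and only its arrays of 24 days stood apart from the rest.

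The second change was the larger by 1.00 ± 0.23 for Dnajb14 (adjusted p = 0.0337) and by 1.11 ± 0.23 for Dnajc18 (adjusted p = 0.0194). The Dnajb14 call was lost without replicate 2 or 3 of 8 days, 1 or 3 of 16 days or 1 or 3 of 24 days (adjusted p 0.0709 to 0.151). The Dnajc18 call was lost without replicate 3 of 8 days or replicate 1 of 16 days (adjusted p 0.0511 to 0.119). Dnajb12 itself fell over the span by a small amount, a change of -0.28 ± 0.10 (adjusted p = 0.0412). That call was lost without replicate 1 or 2 of 8 days, 1 or 3 of 16 days or 2 or 3 of 24 days (adjusted p 0.0545 to 0.151), and with each array scaled to its median (-0.16).

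Dnajb9 and Dnajc10, which act on proteins marked for removal from the compartment, rose over the span by 0.69 ± 0.14 and 0.51 ± 0.13. Dnajc14 and Dnajc25 fell over the span, with changes of -0.37 ± 0.10 (adjusted p = 0.00785) and -0.23 ± 0.08 (adjusted p = 0.0371). Both calls were lost with each array scaled to its median, where the changes were -0.25 and -0.11. That of Dnajc25 was also lost without replicate 2 or 3 of 8 days, 1 or 3 of 16 days or 1 or 2 of 24 days (adjusted p 0.0542 to 0.131). Its row had 4 blank cells taken as 0, among them all those of 16 days. With blanks left missing the Dnajc25 change was -0.29 and not called (adjusted p = 0.0561). Dnajc1, Dnajc16 and Hspa13 were not called, with span changes between -0.20 and -0.08. Without replicate 1 of 8 days Dnajc1 was a called fall (-0.32, adjusted p = 0.0343).

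**Figure D5:**
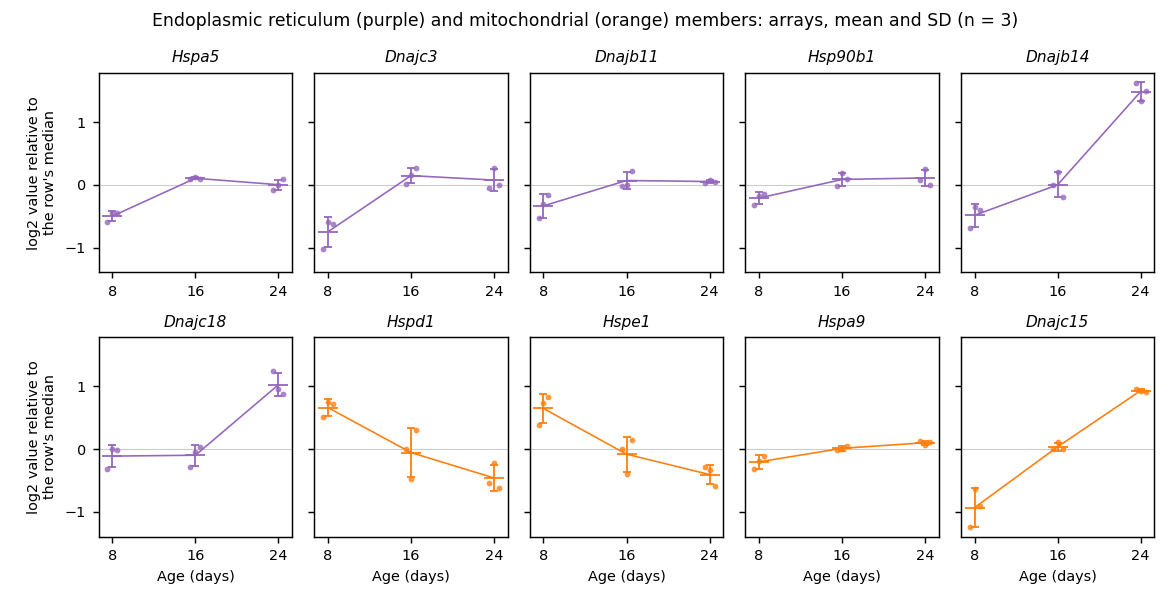
Log2 values by age in days of chosen members of the endoplasmic reticulum and mitochondrial groups, relative to each gene's median. Points are single arrays and lines join means of 3 arrays. Hspa5 and Dnajc3 level off after 16 days, Dnajb14 and Dnajc18 climb by 24 days, and Hspd1 and Hspe1 slope downwards together.

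Of the 10 mitochondrial chaperones 4 rose and 3 fell over the span, 40% and 30%, where 19.2% of all genes rose and 35.2% fell. The share of falls was thus close to that of all genes. The chaperonin pair fell: Hspd1 (HSP60) forms the folding chamber and Hspe1 (HSP10) its lid. Hspd1 was at 0.51, 0.75 and 0.72 at 8 days, at 0.00, -0.47 and 0.31 at 16 days, and at -0.53, -0.22 and -0.62 at 24 days. Hspe1 was at 0.38, 0.73 and 0.83, then at 0.00, -0.39 and 0.15, then at -0.29, -0.34 and -0.58. In both genes the arrays of 8 days lay above all others, and replicate 2 of 16 days, one of the arrays that stand apart, lay among those of 24 days.

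Hspd1 changed by -0.71 ± 0.18 from 8 to 16 days (adjusted p = 0.0179) and by -1.12 ± 0.18 over the span, a fall of 2.17-fold in size. For Hspe1 these changes were -0.73 ± 0.16 (adjusted p = 0.00885) and -1.05 ± 0.16, or 2.07-fold. The first call of Hspd1 was lost without replicate 2 or 3 of 8 days (adjusted p 0.0604 to 0.0616). From 16 to 24 days neither was called (-0.40 ± 0.18 and -0.32 ± 0.16). Both were called falls there without replicate 2 of 16 days (adjusted p = 0.011 for Hspd1 and 0.0324 for Hspe1).

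Hspd1 and Hspe1 lie head to head on chromosome 1, and their promoter windows on opposite strands share 285 bases. This shared stretch holds the heat shock element, the site of heat shock factors, searched as 3 units of GAA and TTC in alternation, with any 2 bases between neighbours, on both strands. The element was found for 4 of the 60 genes with a window (6.67%), Dnajb6, Hspd1, Hspe1 and Hsph1, against 179 of all 27025 genes (0.662%). The 2 stretches are shown because both genes fell and hold the same bases. Capitals mark the element, which here has overlapping matches.
Hspe1, chr1:55088038-55088097, plus strand: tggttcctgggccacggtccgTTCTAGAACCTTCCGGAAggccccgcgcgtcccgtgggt
Hspd1, chr1:55088043-55088092, minus strand: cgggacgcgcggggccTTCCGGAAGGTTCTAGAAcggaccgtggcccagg
The Hspd1 stretch is the reverse complement of part of the Hspe1 stretch. Dnajb6 rose while Hspd1 and Hspe1 fell and Hsph1 was not called, so the genes with a match did not share a direction. The cyclic AMP response element TGACGTCA, also searched, was found for 1 of the 60 genes (1.67%), Dnajc27, against 549 of all genes (2.03%).

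Of the 7 mitochondrial J proteins 3 rose over the span, 1 fell and 3 were not called. Dnajc15, a J protein of the inner membrane, was at -1.25, -0.64 and -0.91, then at 0.00, 0.11 and -0.01, then at 0.95, 0.93 and 0.91, with no overlap. It rose by 0.97 ± 0.13 and by 0.89 ± 0.13, or 3.63-fold in all. Dnajc28 rose from 16 to 24 days by 0.96 ± 0.16 and was not called before. Dnajc4 rose by 0.50 ± 0.12 and by 0.64 ± 0.12, and the first call was lost without replicate 2 of 8 days or replicate 1 of 16 days (adjusted p 0.0507 to 0.0557). Hspa9 (mortalin), the HSP70 that draws proteins into mitochondria, rose over the span by 0.30 ± 0.08. Dnajc11, a J protein tied to the folds of the inner membrane, changed by -0.36 ± 0.10 over the span (adjusted p = 0.0106), a call that was lost with each array scaled to its median. Dnaja3, Dnajc19 and Dnajc30 were not called, with span changes between -0.26 and 0.01. Without replicate 1 of 8 days Dnajc19 was a called fall (adjusted p = 0.0355).

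The small heat shock proteins, which hold unfolded proteins without ATP, went in both directions: of 6 beside Hspb9, 2 rose and 3 fell over the span. Hspb6, known from smooth and heart muscle, was at -1.23, -1.23 and -1.38, then at 0.20, -0.11 and 0.00, then at 0.53, 0.20 and 0.83. It rose by 1.31 ± 0.15, or 2.48-fold, from 8 to 16 days, and its arrays of 16 and 24 days touched at 0.20. Its second rise of 0.49 ± 0.15 (adjusted p = 0.0318) was lost without replicate 2 or 3 of 16 days or 1 or 3 of 24 days (adjusted p 0.0754 to 0.102). Of 5 markers of peritubular myoid cells, the smooth muscle of the testis, Acta2, Cnn1, Myh11 and Tagln fell over the span, with changes from -0.95 to -0.44, and Actg2 rose by 1.47, with a change of 1.82 from 16 to 24 days. The part of these cells in the course of Hspb6 was not tested.

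Hspb1 (HSP27) was at 0.39, 0.47 and 0.19, then at 0.10, -0.66 and 0.00, then at -1.04, -0.89 and -0.67. Its ages did not overlap, and 1 array of 16 days lay near those of 24 days. Hspb1 fell over the span with a change of -1.22 ± 0.19, a size of 2.33-fold. From 16 to 24 days its change was -0.68 ± 0.19 (adjusted p = 0.0212), a call that was lost without replicate 1 or 3 of 16 days or 1 or 2 of 24 days (adjusted p 0.0568 to 0.0874). From 8 to 16 days it was -0.54 ± 0.19 (adjusted p = 0.0663), a called fall without replicate 1 of 16 days. Hspb8, a partner of the co-chaperone BAG3, changed by -0.56 ± 0.11 over the span. Its change from 16 to 24 days was -0.42 ± 0.11 (adjusted p = 0.0173), and that call was lost without replicate 1 of 16 days or replicate 1 or 3 of 24 days (adjusted p 0.0574 to 0.0786).

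Hspb2 changed by -0.36 ± 0.11 over the span (adjusted p = 0.0198), lost without replicate 1 of 8 days or replicate 1 or 2 of 24 days (adjusted p 0.0625 to 0.076) and with scaled arrays. Hspb7 rose by 0.58 ± 0.18 from 16 to 24 days (adjusted p = 0.0337) and by 0.51 ± 0.18 over the span (adjusted p = 0.0366). One of its arrays of 24 days, at 0.00, lay among the younger ages. The first of these calls was lost without replicate 1 or 3 of 16 or of 24 days (adjusted p 0.0691 to 0.124), and the span call without any array of 8 days or replicate 1 or 3 of 24 days (0.0569 to 0.135). Hspb3 was not called (-0.25 ± 0.14).

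Class C J proteins have specialised tasks, and 8 of the 13 outside the other lists were not called over the span. Dnajc27, which joins a small GTPase to a J domain, was at -1.09, -1.05 and -0.95, then at 0.00, 0.11 and -0.03, then at 1.14, 0.55 and 0.94. Its ages did not overlap. It rose by 1.06 ± 0.14 and by 0.85 ± 0.14, or 3.76-fold in all. Dnajc21, which acts in ribosome production, rose by 0.70 ± 0.17 from 8 to 16 days and was not called afterwards (0.23 ± 0.17). Its 3 arrays of 8 days, at -1.02, -0.44 and -0.39, were the lowest.

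Dnajc5, the cysteine string protein that guards vesicle fusion proteins in neurons, was at 0.14, 0.00 and 0.08, then at 0.14, -0.12 and 0.05, then at -0.58, -0.48 and -0.37. Ages 8 and 16 days overlapped and those of 24 days lay below. It changed by -0.50 ± 0.10 from 16 to 24 days (adjusted p = 0.0044), the interval in which its relatives Dnajc5b and Dnajc5g both rose. Dnajc9, a chaperone of histone H3, changed by -0.42 ± 0.15 over the span (adjusted p = 0.0407). That call was lost with scaled arrays and without replicate 2 or 3 of 8 days, replicate 1 of 16 days or any array of 24 days (adjusted p 0.058 to 0.136). The 8 not called over the span were Dnajc6, Dnajc7, Dnajc8, Dnajc12, Dnajc13, Dnajc17, Dnajc22 and Dnajc24, with changes from -0.44 to 0.22. The lowest of these was Dnajc13, an endosomal J protein with 15 rows (-0.44 ± 0.18, adjusted p = 0.0629). It was a called fall without replicate 1 of 8 days, replicate 2 or 3 of 16 days or replicate 2 of 24 days (adjusted p 0.0282 to 0.0413).

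Of 6 genes that carry the name but have other roles, 1 rose and 3 fell over the span. Hspg2 encodes perlecan, a heparan sulfate proteoglycan of basement membranes and not a chaperone, which the rule on symbols took in. It was at 0.78, 0.87 and 0.85, then at 0.14, -0.28 and 0.00, then at -0.69, -0.70 and -0.45, with no overlap of ages. Hspg2 changed by -0.88 ± 0.12 and by -0.56 ± 0.12 and fell 2.72-fold over the span, the largest fall in the set. Hspa12a and Hspa12b, distant HSP70 relatives, changed by -0.53 ± 0.09 and -0.45 ± 0.09 over the span.

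Hspbp1, which releases nucleotide from HSP70, rose over the span by 0.30 ± 0.11 (adjusted p = 0.037). That call was lost without replicate 1 or 3 of 8 days, replicate 1 of 16 days or replicate 1 or 3 of 24 days (adjusted p 0.0535 to 0.133). Hspb11, a protein of intraflagellar transport (IFT25) in spite of its symbol, was not called (0.28 ± 0.20). Hspbap1 was not called (-0.42 ± 0.17, adjusted p = 0.0593), and it was a called fall without replicate 2 or 3 of 16 days.

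Other genes of the chaperone system were counted by lists. Hsf1 and Fkbp6 of the first list had no row of their own and were not analysed here. Of 25 heat shock factors and co-chaperones 4 rose and 2 fell from 8 to 16 days, 5 and 2 from 16 to 24 days, and 8 and 5 over the span. The shares were 16% and 8%, 20% and 8%, and 32% and 20%, against 10.4% and 14.3%, 13.2% and 20.1%, and 19.2% and 35.2% of all genes. Hsf5, a heat shock factor of spermatocytes, rose by 4.24 over the span, 3.67 of it by 16 days. Bag5, a nucleotide exchange factor for HSP70, rose by 0.73 and by 1.73, and St13 (HIP), which steadies HSP70 on its client, by 1.01 over the span.

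Of 9 subunits of the cytosolic chaperonin TRiC, which folds actin and tubulin, 6 rose and none fell over the span (limma, 0 at an unadjusted p under 0.05). Cct6b, a subunit known from the testis, rose by 4.64, Tcp1 by 1.29 and Cct7 by 0.85. Among the cytosolic chaperonin's genes the direction was therefore upward or not called, while the mitochondrial chaperonin pair Hspd1 and Hspe1 fell. Of 11 endoplasmic reticulum lectin chaperones and partners, 7 rose and 2 fell over the span. Clgn (calmegin), a germ cell relative of calnexin, rose by 3.90 in the first interval, and Pdilt, its disulfide isomerase partner, changed by 0.04 and then rose by 3.64. Of 7 mitochondrial co-chaperones 3 rose and 3 fell: Clpx, a protein unfoldase, rose by 0.81, and Lonp1, a protease, and Grpel2, a nucleotide exchange factor for Hspa9, each changed by -0.76.

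Of 7 genes listed for the heat shock response, among them the constitutive Hspa8, 2 rose and 3 fell over the span. The mean of the list, which averages these rises and falls, lay between -0.16 and 0.12 on every array. The list shares genes with the groups above. Of 8 immediate early genes, which answer to handling of tissue, none rose (limma, 0 at an unadjusted p under 0.05) and 6 fell over the span, with list means of 0.19 to 0.38 at 8 days, -0.01 to 0.11 at 16 days and -0.47 to -0.38 at 24 days. Hspa1a, Hspb1 and Hspa8 of the heat shock list also fell over the span, while Dnajb1 and Hsp90aa1 rose. The median change of the immediate early genes was -0.15 from 8 to 16 days and -0.43 from 16 to 24 days. Hspa1a changed by -0.70 and -0.25 in these intervals, so its larger step came first. The part of handling in these changes was not tested.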

How the data were processed

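Whole testis RNA of mice aged 8, 16 and 24 days was measured on 9 arrays, 3 per age. The authors deposited 1 table of 28815 rows with log2 values centred on the median of each row. That scale was read from the values, and background correction and normalization are not given in the sources used here. The number of arrays limits the precision. In all, 38964 cells were blank. With blanks set to 0 every row's median was 0, so blanks were taken as 0.

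Of the rows, 21780 had 1 gene symbol in the probe table, 1605 had several and 5430 none. Rows of 1 symbol were averaged into 19935 genes. The 73 chaperones came from 96 rows, 8 of them from several rows, and all 73 gene IDs matched RefSeq. All 9 arrays were fitted with limma 3.58.1 (R 4.3.3) by lmFit, with 1 mean for each age and 6 residual degrees of freedom, and eBayes gave 2-sided tests. The Benjamini-Hochberg adjustment covered 19935 genes, and the threshold was 0.05. Counts for a list are out of its measured genes. Named genes were the germ cell list, the ubiquitous partners, the up to 4 largest called changes per direction and comparison without overlap of arrays, the genes whose intervals differed, and up to 3 called genes per list of other genes. Other chaperones were named to account for every one, after their values were seen. The members and lists were chosen with earlier results of these data known. The fit was tested on simulated data. Alternatives were scaled arrays, single rows, array weights, 2 ages only, a 2-fold minimum, other treatment of blanks, robust eBayes, a replicate block, and arrays left out. Tables were made in Python 3.11.15 with pandas 2.3.3 and figures with matplotlib 3.10.9. Promoter windows came from a RefSeq table (GRCm38.p6), and protein sequences were not used here.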

Additional observations from a re-analysis of the deposited data

How the results depend on the processing

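Over all alternatives, 5125 single-gene results kept their side of the threshold, 75 gained a call and 224 lost one. Among results called in the main fit or the alternative, 0 changed direction. Results called in neither were counted as kept whatever their sign. Of the 10 germ cell genes 5 to 6 rose from 8 to 16 days, 6 to 10 from 16 to 24 days and 10 over the span, without counting the 2-fold minimum. Requiring 2-fold left 7, 9 and 18 rises and 0, 0 and 4 falls in the 3 comparisons. Array weights gave 9 falls from 8 to 16 days and 10 from 16 to 24 days, and dropping the arrays that stand apart gave 8 and 13. Blanks left missing gave 3 falls from 16 to 24 days, and scaled arrays gave 11 over the span. Leaving out 1 array gave 15 to 19, 19 to 26 and 32 to 35 rises, 4 to 8, 2 to 9 and 14 to 19 falls, and 6 to 11 genes whose intervals differ. The cause of these shifts was not tested, beyond the smaller number of genes that a 2-fold minimum allows.

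Whether replicate numbers pair the arrays was not settled. The correlations of same-numbered arrays were -0.44 for 8 and 16 days, 0.22 for 8 and 24 days and -0.19 for 16 and 24 days. These values do not show pairing and cannot exclude it, because the arrays that stand apart carry different replicate numbers. A replicate block on the 6 numbered arrays gave 3 falls from 8 to 16 days, 14 rises and 0 falls from 16 to 24 days, 10 falls over the span and 6 differing intervals. The same 6 arrays without the block, chosen after seeing the data, gave 15 rises and 0 falls from 16 to 24 days, 11 falls over the span and 5 differing intervals. With limma at an unadjusted p under 0.05 there were 5 falls from 16 to 24 days in each of these fits. The values hold no signal over background, so that dim genes cannot be told from others.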

Other observations

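A few chaperone genes had rows that could not be given to 1 gene. A row annotated with both Hspa1a and Hspa1b changed by -0.46 from 8 to 16 days and by -0.32 over the span, where the row of Hspa1a alone changed by -0.70 and -0.95. The rows annotated with both Dnajb14 and Pin4 changed by -0.38 and -0.43 over the span, against 1.97 for the row of Dnajb14 alone. The rows shared by Hspa8 and 2 small nucleolar RNA genes changed by -0.95 and -0.96, against -0.56 for Hspa8. The 4 rows shared by Gm4247 and Dnajb6 changed by 0.47 to 0.48, against 0.82 for Dnajb6. A row shared by Mir207 and Dnaja1 changed by -0.33 from 16 to 24 days and by -0.20 over the span. The 2 rows of Dnaja1 alone changed by 0.19 and 0.20 over the span. None of the rows with several symbols was tested.

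The 15 rows of Dnajc13 did not all move alike. From 16 to 24 days their changes ran from -0.61 to 0.09, and fitted one by one 6 of them fell, while over the span 7 fell. Their mean was called in neither comparison.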
